A study of Bos taurus with 48 samples.

Results

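The guanylate-binding proteins (GBPs) were represented by 7 probes of 6 genes, GBP1, GBP2, GBP3, GBP4, GBP6 and GBP7, among the 21475 probes and 20437 gene names of a bovine 2-colour oligonucleotide array. The members were every non-control probe whose gene name or bracketed symbol was GBP1 to GBP7, and GBP5 had no probe under that rule. Endometrium was taken on day 17 after synchronised oestrus from 22 lactating Holstein-Friesian cows of mixed New Zealand and North American ancestry. The 12 pregnant cows had received a good-quality blastocyst on day 7 by embryo transfer, and the other 10 were cyclic. Each cow gave caruncular endometrium, the aglandular sites where the placenta later attaches, and intercaruncular endometrium, the glandular tissue between them. In the pregnant cows 7 embryos were labelled large and 5 small (small: under 20 cm and under 40 mg), and 6 cows were labelled fertile and 6 sub-fertile, 3 and 4 of them with a large embryo. Nothing in the labels defined the fertility classes further, and no group had a genotype label or a drug treatment of its own. Each value below is a log2 ratio of the sample to one shared pool of RNA from all 44 samples, with the array median set to 0, so values can be compared between samples of a probe but not between probes.

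GBPs are large GTPases whose genes are switched on by interferons, most strongly by interferon gamma and also by type I interferons. They assemble on membranes around intracellular bacteria, parasites and virus particles, and some human members feed the inflammasome, the complex that activates inflammatory caspases. In ruminants the elongating embryo signals its presence with interferon tau, a type I interferon that acts on the uterine lining through its cell-surface receptor and the JAK-STAT pathway.

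The probe sequences are shown because the array's names for this family do not all match current ones, and only the sequence fixes what was measured. Both GBP7 probes are given first, with their longest shared run of 7 bases in capitals.
GBP7 (LOC507055): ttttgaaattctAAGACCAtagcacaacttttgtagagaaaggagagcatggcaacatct
GBP7 (LOC533657): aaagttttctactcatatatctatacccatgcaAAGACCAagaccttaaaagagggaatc
GBP1: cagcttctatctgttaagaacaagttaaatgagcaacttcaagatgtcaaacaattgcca
GBP2: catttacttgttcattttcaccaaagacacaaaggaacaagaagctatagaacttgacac
GBP3: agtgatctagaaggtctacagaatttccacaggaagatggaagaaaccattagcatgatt
GBP4: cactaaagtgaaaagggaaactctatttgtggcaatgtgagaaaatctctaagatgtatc
GBP6: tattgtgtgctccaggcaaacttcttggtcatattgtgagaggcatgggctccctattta

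All 7 sequences are 60 bases and are printed in the order of letters that the study's supplement gives. Over the 21 pairs of probes the longest run of shared bases on the same strand was 5 to 7, and the best ungapped alignment matched 28.3% to 40.0% of positions. The probes therefore read different stretches of transcript, although their letters alone do not show which other family members each could bind.

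By gene number, 5 of the 7 probes matched the current RefSeq gene table (ARS-UCD2.0). The array's GBP2 probe (LOC516949) is that table's GBP5, and the array's GBP3 probe (LOC512486) is that table's GBP1. The array's GBP6 is LOC513659. The probes both named GBP7 belong to different genes, LOC533657, which has GBP6 as a synonym, and LOC507055. The array's GBP1 (LOC514143) and its GBP4, an expressed sequence tag, had no match. Array names are kept below.

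The arrays had 68.8% to 84.0% of probes well above background, and 12 slides were scanned in 3 sessions, with most slides holding 1 tissue and 1 state. A probe was tested where it was well above background with a sample signal of at least 80 in at least 22 of the 44 samples, which 14717 probes were. Of the GBP probes 6 met this in 44 of 44 samples, so none of them passed through 1 group alone. GBP7 (LOC507055) met it in 20 samples and was not tested. The labelled tissue carried endometrial transcripts: 4 of 5 listed endometrial genes (PGR, the progesterone receptor, FOXL2, HOXA10 and HOXA11) had a tested probe. None of the 4 was called by pregnancy under the rule given below. Their changes were -0.41 to 0.46 (log2) in caruncular and -0.43 to 0.04 in intercaruncular tissue.

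Pregnancy was the first comparison, and it asks how the endometrium responds to an embryo. All 6 tested GBP probes were up-regulated in pregnant animals in both tissues, 4.66- to 9.69-fold in caruncular and 3.25- to 5.34-fold in intercaruncular endometrium. A probe counted as up-regulated at an adjusted p under 0.05 and at least 1.5-fold, by limma with Benjamini-Hochberg adjustment over all tested probes. Of all tested probes 5.78% were up-regulated by that rule in caruncular and 4.01% in intercaruncular endometrium. The median change of the 6 GBP probes was 3.04 and 2.32 (log2), beside -0.04 and -0.01 for all tested probes.

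**Figure D1:**
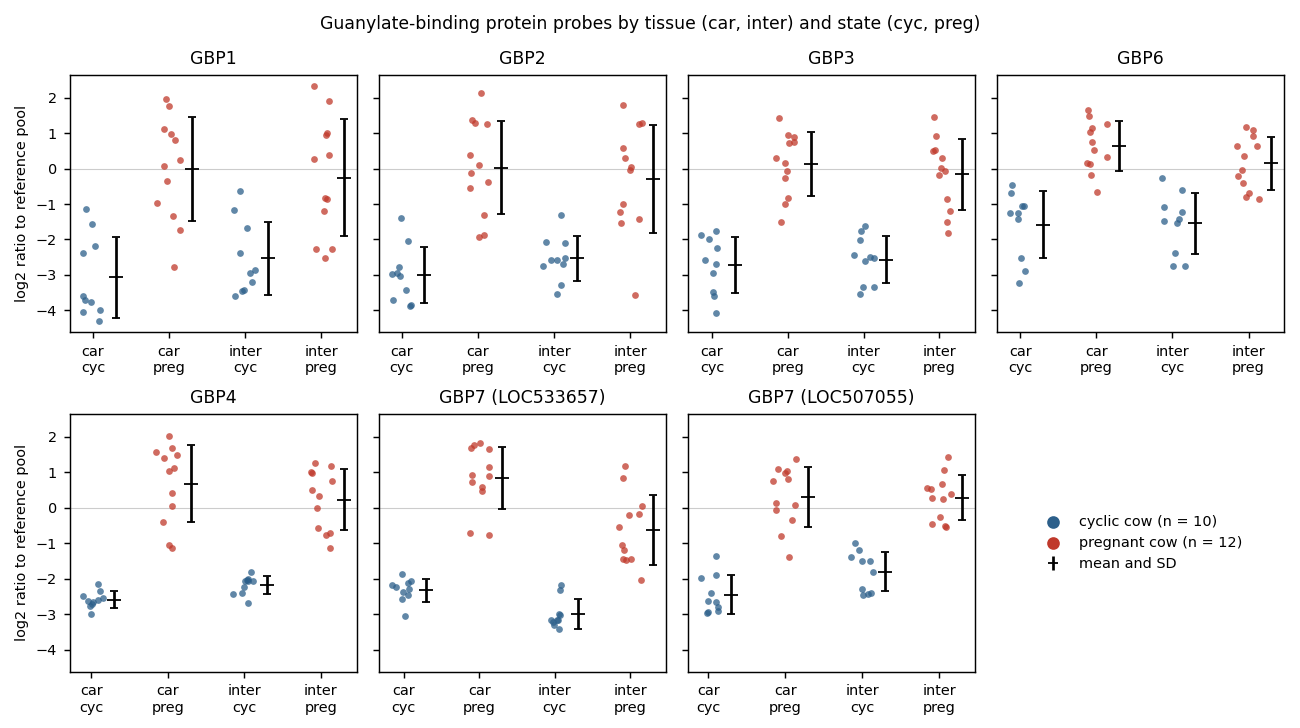
Log2 ratio to the reference pool (vertical axis) of the 7 GBP probes in each cow, by tissue and state. Points are cows, 10 cyclic (blue) and 12 pregnant (red), and bars give mean and SD. GBP4 and both GBP7 probes separate the states with little or no overlap, while GBP1 and GBP2 reach from the cyclic range to above the pool.

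GBP4 had the highest caruncular fold change. Its caruncular log2 ratio ran from -3.00 through a median of -2.62 to -2.14 in cyclic cows and from -1.12 through 1.08 to 2.04 in pregnant cows. The states did not overlap, and 12 of 12 pregnant cows lay above every cyclic cow. The change was 3.28 (SE 0.33, limma adjusted p = 2.13e-07), or 9.69-fold. In intercaruncular tissue GBP4 ran from -2.67 through -2.08 to -1.81 in cyclic and from -1.14 through 0.42 to 1.25 in pregnant cows. Again no pregnant cow fell into the cyclic range. The change there was 2.42 (SE 0.26, limma adjusted p = 8.17e-07), or 5.34-fold.

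GBP7 (LOC533657) separated the states as fully. In caruncular tissue it ran from -3.05 through -2.26 to -1.87 in cyclic cows and from -0.76 through 0.91 to 1.82 in pregnant cows. In intercaruncular tissue it ran from -3.42 through -3.16 to -2.18 and from -2.03 through -0.80 to 1.18. Both tissues had every pregnant cow above every cyclic cow, with the narrower gap in intercaruncular tissue. The changes were 3.17 (SE 0.28, limma adjusted p = 1.76e-08, 9.03-fold) and 2.37 (SE 0.32, adjusted p = 1.65e-05, 5.17-fold).

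GBP3, which current annotation calls GBP1 (in humans the member that coats cytosolic bacteria), was next in separation. Its caruncular values ran from -4.08 through -2.64 to -1.77 in cyclic cows and from -1.50 through 0.23 to 1.43 in pregnant cows, with no overlap. In intercaruncular tissue they ran from -3.54 through -2.51 to -1.61 and from -1.81 through -0.02 to 1.44. A single pregnant cow there lay within the cyclic range, since 11 of 12 were above every cyclic cow. The changes were 2.85 (SE 0.34, limma adjusted p = 2.62e-06, 7.22-fold) and 2.41 (SE 0.35, adjusted p = 5.05e-05, 5.31-fold).

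GBP2, which current annotation calls GBP5 (in humans a promoter of NLRP3 inflammasome assembly), overlapped more. It ran from -3.87 through -3.00 to -1.39 in caruncular tissue of cyclic cows and from -1.94 through -0.01 to 2.13 in pregnant cows. In intercaruncular tissue it ran from -3.53 through -2.57 to -1.30 in cyclic and from -3.56 through 0.01 to 1.80 in pregnant cows, so the lowest value there came from a pregnant cow. The highest cyclic value was passed by 10 of 12 pregnant cows in caruncular and 9 of 12 in intercaruncular tissue. The changes were 3.03 (SE 0.45, limma adjusted p = 4.30e-05, 8.16-fold) and 2.25 (SE 0.48, adjusted p = 0.00243, 4.74-fold).

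GBP1 had the widest spread of the 6 in pregnant cows, with an SD of 1.46 in caruncular and 1.65 in intercaruncular tissue. Its caruncular values ran from -4.29 through -3.65 to -1.15 in cyclic cows and from -2.77 through 0.16 to 1.98 in pregnant cows. In intercaruncular tissue they ran from -3.60 through -2.90 to -0.63 and from -2.52 through -0.27 to 2.32. The states overlapped in both tissues, with 9 and 6 of 12 pregnant cows above every cyclic cow. The changes in the mean were still called, at 3.05 (SE 0.54, limma adjusted p = 2.66e-04, 8.29-fold) and 2.28 (SE 0.56, adjusted p = 0.00676, 4.84-fold).

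GBP6 had the lowest fold change in both tissues. It ran from -3.23 through -1.25 to -0.47 in caruncular tissue of cyclic cows and from -0.65 through 0.64 to 1.65 in pregnant cows. In intercaruncular tissue it ran from -2.76 through -1.44 to -0.28 and from -0.87 through 0.16 to 1.18. Most pregnant cows lay above every cyclic cow, 11 and 8 of 12. The changes were 2.22 (SE 0.33, limma adjusted p = 4.92e-05, 4.66-fold) and 1.70 (SE 0.32, adjusted p = 8.60e-04, 3.25-fold).

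GBP7 (LOC507055) was dim, with a median sample signal of 17.5 units on caruncular arrays of cyclic cows and 118 on those of pregnant cows. It was well above background on 0 of 13 caruncular arrays of cyclic cows and 12 of 13 of pregnant cows, so cyclic tissue has only a bound. Set against that bound, pregnant caruncular tissue had 4.18-fold more, and there the measured means of the normalised log2 sample signal were 6.70 in pregnant and 3.99 in cyclic cows. The bound is the pregnant mean over the cyclic mean of, per array, the lowest signal that was well above background or the probe's own signal if higher. It is approximate, because a probe that is not well above background can still lie above that lowest signal. It is also open to dye bias because dyes were not swapped. A fit of all probes without the filter gave a limma adjusted p of 1.78e-06. In intercaruncular tissue 1 of 10 arrays of cyclic cows and 12 of 12 of pregnant cows had it well above background. The same bound there was 3.81-fold, with measured means of 6.96 and 4.76 (limma adjusted p = 7.75e-06 in the fit without the filter).

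Whether the GBP7 probes differed in their pregnancy effect cannot be read from these arrays, because the effect on LOC507055 is known only as an approximate lower bound. As measured, the effect on LOC507055 less that on LOC533657 was -0.42 (adjusted p = 0.124) for caruncular samples and -0.29 (adjusted p = 0.384) for intercaruncular ones, by a two-sided permutation test of 100000 resamples over 2 tests. With another background correction (normexp, offset 50) the same quantities were -1.87 (permutation adjusted p = 2.00e-05) and -1.37 (adjusted p = 7.00e-05), past the threshold. The outcome thus moved with the handling of the background, and it did so through the dim probe. In caruncular samples the LOC507055 effect was 1.27 under that correction in place of 2.76, and the LOC533657 effect was 3.13 in place of 3.17. Of 4 caruncular samples hybridised again, the largest difference between repeats was -1.12, for LOC507055 in the cow labelled Non-Pregnant_9813. In every other pairing of a GBP probe and a repeated sample the repeats differed by -0.39 to 0.15, where the SD over all tested probes was 0.10 to 0.15.

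Slide limits these results, because few slides held both states. With slide as a fixed block 0 of the 6 probes were called in caruncular tissue (changes 1.30 to 2.75, limma adjusted p 0.216 to 0.800) and 1 in intercaruncular tissue (GBP4, 2.86, adjusted p = 0.0363; the others 1.46 to 2.26). That block cut the calls in both directions over all tested probes from 1473 to 58 and from 1071 to 129. On the 3 slides that held both states, each with 1 cyclic cow and 2 or 3 pregnant cows, the 6 tested probes differed by 1.30 to 4.82. Pregnant was over cyclic on every slide. The changes with slide as a fixed block are the differences on 1 of these slides per tissue, with 3 pregnant cows against 1 cyclic cow. Those slides are therefore not separate evidence from that block. The remaining slide held the repeat array of its cyclic cow, Non-Pregnant_9960, and that of 1 of its 2 pregnant cows, Pregnant_926. Within scan sessions they differed by 1.70 to 4.65, also pregnant over cyclic throughout. The largest set in each tissue was 11 pregnant against 9 cyclic cows, and the smaller sets were 2 against 4 in caruncular and 1 against 1 in intercaruncular tissue. The smaller caruncular set held the repeat arrays of Pregnant_926, Non-Pregnant_9960, Non-Pregnant_9778 and Non-Pregnant_9813. Those cows are also in the largest caruncular set, so the sets are not independent. With slide as a random block 6 of 6 were called in each tissue. That block also draws on differences between slides, most of which held 1 state, so it cannot separate slide from pregnancy.

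Probes of relatives outside the rule were also higher in pregnant cows. LOC533818, described as similar to GBP4, rose in caruncular tissue by 1.16 (limma adjusted p = 2.90e-04). In intercaruncular tissue it was well above background on 3 of 10 arrays of cyclic cows and 10 of 12 of pregnant cows, so no size is given there. LOC510788, also described as GBP4-like, rose by 1.46 (adjusted p = 0.00109) and 0.90 (adjusted p = 0.0296).

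Other genes of the pathway were taken from fixed lists. Of 5 tested genes on a list of other immune GTPases, not all of them known to be interferon-inducible, 3 rose in each tissue and none fell. The medians were 1.64 and 1.20. MX2, an antiviral dynamin-like GTPase, rose by 4.90 (limma adjusted p = 5.69e-14) and 2.90 (adjusted p = 2.95e-07), MX1 by 3.28 (adjusted p = 6.88e-11) and 2.50 (adjusted p = 2.63e-10). GVIN1, a very large interferon-inducible GTPase, rose by 1.64 (adjusted p = 1.30e-04) and 1.20 (adjusted p = 6.44e-04).

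Of 13 tested signalling and transcription factors, 5 rose in each tissue and none fell, with medians of 0.38 and 0.17. IRF9, the DNA-binding subunit of a factor activated by type I interferons, rose by 2.49 (limma adjusted p = 5.58e-11) and 2.00 (adjusted p = 1.59e-10). IRF1, a factor that acts on GBP promoters, rose by 1.22 (adjusted p = 1.50e-04) and 0.66 (adjusted p = 0.00358), and SOCS1, the feedback inhibitor of the pathway, by 1.19 (adjusted p = 0.00373) and 0.64 (adjusted p = 0.00897). IRF8, a factor of myeloid cells, rose by 1.08 (adjusted p = 3.89e-06) and 0.86 (adjusted p = 6.43e-04).

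On the list of interferon ligands and receptors the 5 tested genes were all receptors, and none was called in either tissue by limma (medians -0.18 and -0.26). No ligand was tested: IFNG was well above background on 31 of 48 arrays and IFNB1 on 1. None of the 5 enzymes that attach or process the lipid tail of prenylated proteins was called either, with medians of -0.05 and 0.09. Of 4 tested inflammasome and pyroptosis genes, 4 rose in caruncular and 2 in intercaruncular tissue. CASP4, the caspase that senses cytosolic bacterial lipopolysaccharide, rose by 1.60 (limma adjusted p = 3.92e-06) and 0.94 (adjusted p = 1.68e-04), and the cytokine IL18 by 0.85 (adjusted p = 2.55e-04) and 0.65 (adjusted p = 0.00270). Of 8 autophagy genes and GBP partners, CYBB, the membrane subunit of the phagocyte oxidase, rose in caruncular tissue alone by the call rule (0.93, adjusted p = 1.15e-04), and none was called in intercaruncular tissue. The CYBB effect did not pass the limma test of a difference between the tissues (0.35 larger in caruncular tissue, adjusted p = 0.777). That test did not pair the tissues of a cow.

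Markers of other cell types also moved with pregnancy. In whole tissue, fewer cells of a type and less RNA per cell cannot be told apart. Of 7 macrophage and monocyte markers, 4 rose in caruncular tissue (MSR1 by 1.48, AIF1 by 1.19, CD86 by 0.98, CSF1R by 0.73) and 3 in intercaruncular tissue. The mean level of that list ran from -0.36 to 0.81 in pregnant and -1.09 to -0.09 in cyclic caruncular samples, and from -0.53 to 0.64 and -0.97 to -0.12 in intercaruncular samples, so the states overlapped.

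Of 5 general leukocyte markers CD53 alone was called, with rises of 1.71 and 1.24, and the list's mean level ran from 0.06 to 0.72 in pregnant and -0.64 to 0.16 in cyclic caruncular samples. The corresponding intercaruncular ranges were -0.66 to 0.35 and -0.71 to 0.19. Of 4 tested natural killer cell markers 2 rose in caruncular and none in intercaruncular tissue, and the list's mean level ran from -0.11 to 0.88 in pregnant and -0.66 to 0.38 in cyclic caruncular samples and from -0.25 to 0.85 and -0.50 to 0.28 in intercaruncular ones. No tested T lymphocyte (4) or B lymphocyte (2) marker was called by limma in either tissue. Of 4 smooth muscle markers 3 fell in both tissues, PECAM1 was the 1 of 5 endothelial markers that fell, and 1 and 3 of 6 stromal markers fell. The smooth muscle mean level ran from -1.47 to 0.51 in pregnant and -0.46 to 1.17 in cyclic caruncular samples, and from -1.69 to 0.01 and -1.37 to 0.81 in intercaruncular samples. The stromal mean level ran from -0.38 to 1.24 and 0.22 to 1.55 in caruncular samples and from -0.56 to 0.40 and 0.17 to 1.19 in intercaruncular samples, so these lists overlapped between states too. Of 4 tested epithelial markers CDH1 and CLDN4 rose in both tissues, and KRT18 fell in caruncular tissue. Of 5 trophoblast markers of the embryo with a probe, PAG11 was well above background on 0 of 48 arrays, TKDP1 on 2, PAG2 on 3, ELF5 on 17 and PAG1 on 48. PAG1, a symbol that also names an unrelated membrane adaptor, was the one tested, and it was not called (0.16 and -0.33). The part of leukocyte, muscle and stromal content in the GBP changes was not tested.

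The tissues were compared next. Tissue nearly coincided with scan session. Of the 3 sessions, 1 held 11 pregnant and 9 cyclic intercaruncular arrays, and another held 11 and 9 caruncular arrays. Only the remaining session held both tissues. No slide or scan block was run for tissue levels, so a session offset and a tissue difference cannot be told apart. For GBP1, GBP2, GBP3, GBP4 and GBP6 the order of the mean levels was pregnant caruncular, pregnant intercaruncular, cyclic intercaruncular and cyclic caruncular, from high to low. Neighbours of one state in that order were not called different by limma. GBP7 (LOC533657) had the cyclic groups the other way round.

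GBP7 (LOC533657) was the only GBP probe called between tissues, in pregnant cows, where its mean was 0.85 ± 0.88 (SD, n = 12) in caruncular and -0.62 ± 0.99 (SD, n = 12) in intercaruncular tissue. The difference was 1.48 (SE 0.29, 95% interval 0.89 to 2.06, limma adjusted p = 7.00e-05, 2.78-fold), and 10 of 12 caruncular samples lay above the intercaruncular mean. The other 5 probes differed by 0.24 to 0.48 and were not called. Of all tested probes 9.07% were higher in caruncular tissue of pregnant cows by the same rule. With the cow as a replicate block (fixed) the 5 stayed under 1.5-fold, though GBP6 (0.48, adjusted p = 0.00724) and GBP4 (0.45, adjusted p = 0.00781) passed the p threshold.

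In cyclic cows none of the 6 probes was called between tissues, beside 7.05% of all tested probes higher in caruncular tissue, and 1 of the 6 had an unadjusted p under 0.05. That was GBP7 (LOC533657), at -2.32 ± 0.33 (SD, n = 10) in caruncular and -2.99 ± 0.41 (SD, n = 10) in intercaruncular tissue, a difference of 0.67 (limma adjusted p = 0.0965). A fit with cow as a fixed block (replicate block) called it, with an adjusted p of 0.0109. The other 5 probes had lower means in caruncular tissue, by -0.53 to -0.04.

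The pregnancy effect was larger in caruncular tissue for all 6 probes, by 0.44 to 0.86, but the difference passed for none of them (limma adjusted p 0.695 to 0.974, none with an unadjusted p under 0.05), beside 0.0204% of all tested probes, 3 in number. With slide as a fixed block the difference turned negative for GBP1, GBP3 and GBP6 (-0.17 to -0.13), none called. Blocking on the cow (replicate block, fixed) called GBP4, at 0.86 (adjusted p = 0.0446, 180 calls in all), and a random block gave it an adjusted p of 0.0846. MX2 was called without a block, at 1.99 (adjusted p = 0.0157).

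The tissues of a cow tracked each other. In pregnant cows the log2 ratios of caruncular and intercaruncular samples correlated across cows (n = 12) with Pearson r of 0.79 for GBP1, 0.71 for GBP2, 0.81 for GBP3, 0.83 for GBP4, 0.55 for GBP6 and 0.66 for GBP7 (LOC533657). Permutation p-values ran from 0.00130 to 0.0200 (adjusted over 12 relations 0.00298 to 0.0267) except for GBP6, at 0.0654 (adjusted 0.0784). Spearman's rho was 0.73 to 0.81 (permutation p 0.00208 to 0.00923, adjusted 0.0121 to 0.0138), and 0.46 for GBP6 (permutation p = 0.133, adjusted 0.160). Without the 2 cows farthest from the caruncular median r was 0.47 to 0.97, lowest for GBP7.

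In cyclic cows (n = 10) r was 0.95 for GBP1, 0.89 for GBP2, 0.97 for GBP3 and 0.96 for GBP6 (permutation p 3.00e-05 to 7.30e-04, adjusted 3.60e-04 to 0.00219), with Spearman's rho of 0.78 to 0.94 (permutation p 2.30e-04 to 0.0112, adjusted 0.00276 to 0.0149). Without the 2 farthest cows r was 0.72 to 0.95 for these 4. For GBP4 r was -0.07 (permutation p = 0.843, adjusted 0.843; rho -0.07, p = 0.866) and for GBP7 -0.52 (permutation p = 0.129, adjusted 0.141; rho -0.22, p = 0.537). Those probes had the narrowest cyclic groups, with SDs of 0.23 and 0.26 for GBP4 and 0.33 and 0.41 for GBP7, against 0.63 to 1.14 for the other 4. Slides held too few cows of a group for a value within slides.

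**Figure D2:**
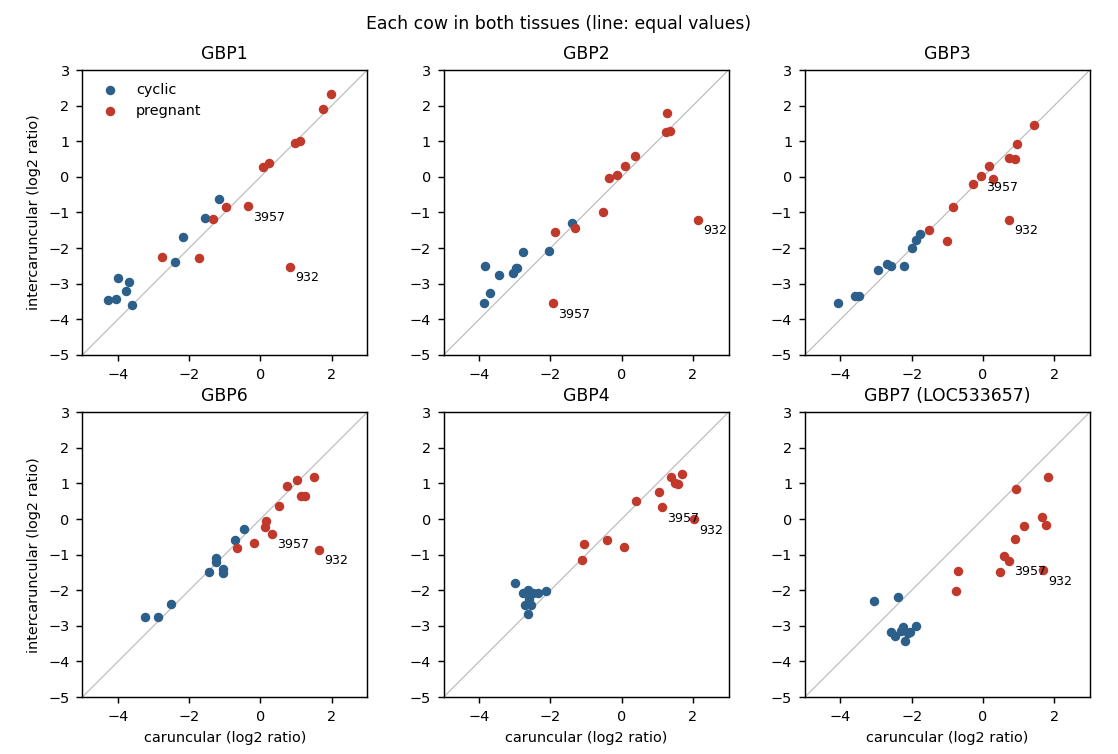
Each cow's intercaruncular log2 ratio (vertical axis) against its caruncular log2 ratio (horizontal axis) for the 6 tested GBP probes, cyclic cows in blue and pregnant cows in red, with the line of equal values. The numbered cows are Pregnant_932, below the line in every panel, and Pregnant_3957, apart from the rest for GBP2.

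The cows labelled Pregnant_932 and Pregnant_3957 were singled out after their values were seen. Pregnant_932, fertile with a small embryo, had caruncular less intercaruncular differences of 1.95 (GBP3) to 3.34 (GBP1 and GBP2) over the 6 probes. In each of the 6 this was the largest difference of the 12 pregnant cows. For GBP1 the other 11 cows ran from -0.51 to 0.55, and for GBP7 (LOC533657), where that cow had 3.12, from 0.08 to 1.96.

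Pregnant_3957, fertile with a large embryo, was low in GBP2 and not in the rest of the family. Its GBP2 was -1.94 in caruncular and -3.56 in intercaruncular tissue, the lowest of 12 in both. In the other 5 tested probes the same cow ranked between the fourth and the seventh from the bottom. Its GBP4 was 1.12 and 0.33, for instance, and its GBP3 was -0.05 and 0.02.

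Within groups the probes varied together to different degrees. Deviations from the 4 group means correlated over the 44 samples with r of 0.72 to 0.91 among GBP1, GBP2, GBP3 and GBP6 (6 pairs), 0.69 between GBP4 and GBP7 (LOC533657), and 0.41 to 0.67 across these sets (8 pairs). The sets were chosen after the values were seen, the samples share cows, arrays and the reference pool, and no test was made.

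**Figure D3:**
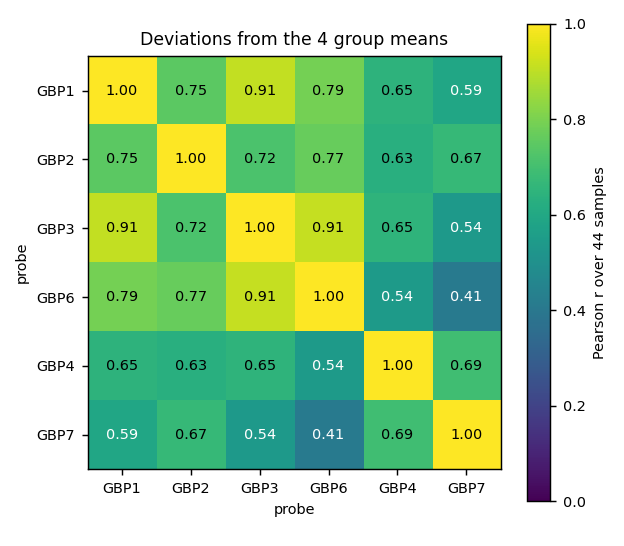
Pearson r over 44 samples between the 6 tested GBP probes (both axes) after subtraction of each probe's 4 group means, printed in each cell and coloured from 0 to 1. GBP1, GBP2, GBP3 and GBP6 form the block of high values at upper left, up to 0.91, and GBP6 with GBP7 is lowest at 0.41.

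Over the same 44 deviations, genes among the most like each member, of 11432 named probes, were these. For GBP1 they were WARS, a tRNA synthetase (r = 0.84), NOD27 (0.80) and INDO, an enzyme that degrades tryptophan (0.80). For GBP3 they included WARS (0.80) and NOD27 (0.79). For GBP2 they were IBRDC3 (0.77), TNFSF13B, a B cell growth factor (0.76), and INDO (0.76).
For GBP6 they included INDO (0.70) and CIITA, the regulator of class II antigen presentation genes (0.70). GBP4 and GBP7 (LOC533657) had other names on their lists. For GBP4 they were IFI44L (0.95), FUNDC1 (0.93) and LGP2, an RNA sensor (0.92). For GBP7 they were IFIH1, another RNA sensor (0.89), PAPD4 (0.88) and RSAD2, the antiviral protein viperin (0.87).

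Embryo size was compared within the pregnant cows. No tested GBP probe was called in either tissue, where an adjusted p under 0.05 by limma sufficed, but mean levels were higher with a large embryo for all 6 in both. The background was 0% of tested probes in caruncular and 3.7% in intercaruncular tissue. In intercaruncular tissue 4 of the 6 probes had an unadjusted p under 0.05, and in caruncular tissue none did, beside 3169 and 1020 of all tested probes.

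In intercaruncular tissue GBP3 was -1.81, -1.50, -1.21, -0.85 and 0.92 in the 5 cows with a small embryo. It ran from -0.19 through 0.31 to 1.44 in the 7 with a large embryo. Of the small-embryo cows 4 lay below every large-embryo cow, and the cow labelled Pregnant_3956 lay among the highest. The difference was 1.25 (95% interval 0.34 to 2.17, limma adjusted p = 0.112).

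GBP1 was -2.52, -2.28, -2.26, -1.19 and 2.32 with a small embryo and ran from -0.86 through 0.38 to 1.90 with a large embryo. The pattern was that of GBP3, with Pregnant_3956 here above every other cow. The difference was 1.59 (95% interval -0.11 to 3.29, limma adjusted p = 0.263). GBP7 (LOC533657) was -2.03, -1.48, -1.45, -1.44 and -0.17 with a small and ran from -1.18 through -0.19 to 1.18 with a large embryo, a difference of 1.19 (95% interval 0.25 to 2.12, adjusted p = 0.136). GBP2, GBP4 and GBP6 differed by 0.82 to 0.96 (adjusted p 0.168 to 0.587).

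The intercaruncular calls depended on single cows. Without Pregnant_3956 (fertile, small embryo) 3 probes were called: GBP1 (2.47, limma adjusted p = 0.0246), GBP3 (1.71, adjusted p = 0.0154) and GBP6 (1.14, adjusted p = 0.0484). Without Pregnant_9790 GBP4 was called (1.17, adjusted p = 0.0441). The calls over all tested probes also moved, from 545 to 644 without Pregnant_3956 and to 1878 without Pregnant_9790. In caruncular tissue the differences were 0.16 to 1.01 (adjusted p 0.773 to 0.981), widest for GBP1, with a 95% interval of -0.61 to 2.64. The caruncular GBP2 difference, 0.16, turned negative without any 1 of 4 cows, the lowest value being -0.29.

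**Figure D4:**
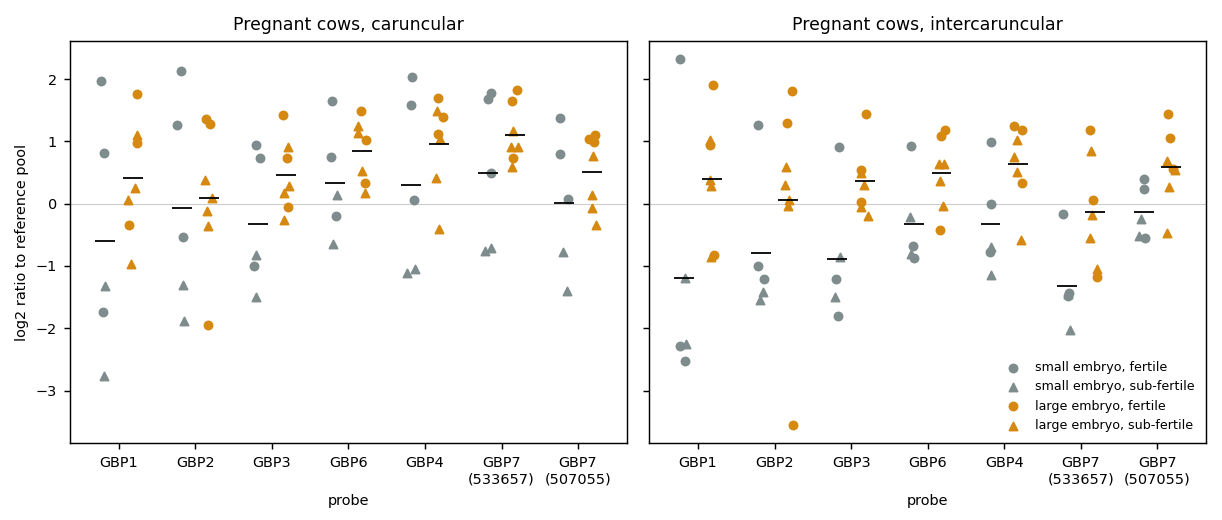
Log2 ratio to the reference pool (vertical axis) of the 7 GBP probes in the 12 pregnant cows, caruncular at left and intercaruncular at right, by embryo size (grey small, orange large) and fertility class (circles fertile, triangles sub-fertile); lines are means by embryo size. At right the large-embryo means lie above the small-embryo means for every probe, and a single small-embryo cow reaches 2.32 for GBP1.

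Fertility class made no called difference in any tested GBP probe in either tissue by limma at an adjusted p under 0.05, beside 0% of tested probes in caruncular and 0.0476% in intercaruncular tissue. In caruncular tissue 2 of the 6 had an unadjusted p under 0.05 and in intercaruncular tissue none, beside 2026 and 2001 of all tested probes. GBP4 ran from 0.06 through 1.49 to 2.04 in caruncular tissue of fertile cows and from -1.12 through 0.00097 to 1.49 in sub-fertile cows. GBP7 (LOC533657) ran from 0.49 through 1.67 to 1.82 and from -0.76 through 0.75 to 1.16.

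The classes overlapped for both, with 3 and 4 of 6 fertile cows above every sub-fertile cow. The differences were 1.26 (95% interval 0.23 to 2.29, limma adjusted p = 0.307) and 1.01 (95% interval 0.17 to 1.84, adjusted p = 0.310). The other 4 differed by 0.42 to 1.18 in the same direction. In intercaruncular tissue the differences were 0.11 to 0.52 (adjusted p 0.618 to 0.962), and they turned negative for all 6 with slide as a fixed block (-1.95 to -0.34) and for all but GBP4 with slide as a random block.

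The family sits together in the genome, so the genes around it were also read, after the value of GTF2B had been seen. The RefSeq table places 20 genes from LOC513659 (the array's GBP6) to LOC507055, and 5 of them had a probe by gene number, all GBPs, 4 of them tested. GTF2B, a general transcription factor and the second protein-coding gene with a probe past the cluster, rose in caruncular tissue by 1.73 (SE 0.21, limma adjusted p = 2.21e-06) and in intercaruncular tissue by 1.32 (SE 0.17, adjusted p = 1.27e-05). No other tested gene among the 5 protein-coding neighbours with a probe on each side was called, and BARHL2 was not tested. KYAT3, between the cluster and GTF2B, changed by 0.16 (limma adjusted p = 0.352) and -0.12 (adjusted p = 0.422). LRRC8D on the other side changed by 0.30 (adjusted p = 0.00605) and 0.35 (adjusted p = 0.0305), passing the p threshold but under 1.5-fold. So did a PKN2 probe in caruncular tissue (0.40, adjusted p = 0.00518), while the other PKN2 probe there changed by -0.07 (adjusted p = 0.323).

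**Figure D5:**
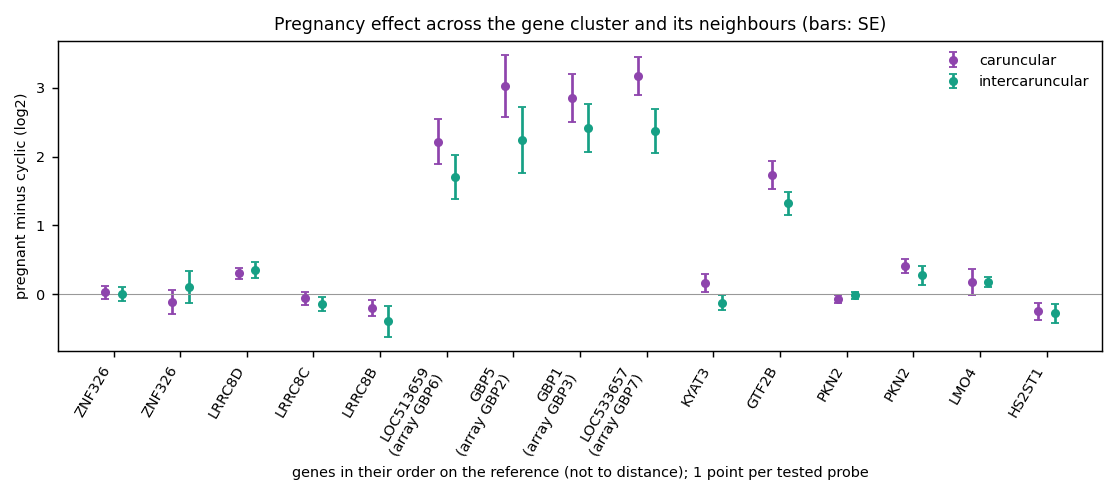
Pregnant minus cyclic difference (vertical axis, log2, bars SE) of each tested probe in the GBP cluster and of its neighbours, in gene order and not to distance, caruncular in purple and intercaruncular in green. The 4 GBP probes lie between 1.70 and 3.17, GTF2B at 1.73 and 1.32, and every other neighbour between -0.40 and 0.40.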

How the data were processed

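Bovine 2-colour Agilent arrays were used, 48 for 44 samples, with sample RNA in Cy5 and the reference pool in Cy3. The authors deposited scanner files (Feature Extraction 9.5.3.1 per the file headers) holding, for each spot, a log10 ratio and an intensity per dye, background-subtracted and LOWESS dye-normalised, with outlier and background flags as other columns. The authors also deposited a matrix of log2 ratios; its column medians were -0.03 to 0.06, it correlated with the scanner values (lowest r 0.977), and its exact centring was not given in the sources used here.

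From the files, log10 ratios were taken to log2, flagged spots left out, spots of a probe averaged, the array median subtracted and the 4 repeated samples averaged. Groups came from the labels, 1 cow being 1 replicate. limma 3.58.1 (R 4.3.3) was fitted within tissue, or over all 44 samples for contrasts of tissues, and tested on simulated data. Contrasts that used cyclic intercaruncular samples had values for 14715 probes, and the others for 14717. The tissues of a cow pair the samples: deviations correlated by 0.11 to 0.87 (median 0.61) in all 22 cows. Alternatives were normexp, no centring, no or a stricter filter (33 samples), the matrix, the methods' t-test, slide, scan and cow blocks, single repeats, covariates and leaving out cows.

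Members and lists were chosen with earlier results of these data known. Every member was described, at most 4 called genes of a list were named per comparison, and the 3 most correlated named genes were taken per member; an item among these is not reported here.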

Additional observations from a re-analysis of the deposited data

Results flagged for a closer look

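Of 70 groups of GBP values checked for a sample far from the others, 3 had one, and chance alone gives about 1 in 20. With a small embryo, Pregnant_3956 stood apart in intercaruncular tissue, at 2.32 for GBP1, where the nearest of the other 4 cows was at -1.19, and at 1.26 for GBP2, where the nearest was at -0.999. With a large embryo, Pregnant_3957 stood apart in intercaruncular GBP2, at -3.56, where the nearest of the other 6 cows was at -0.04.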

How the results depend on the processing

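No called GBP difference changed its direction under any alternative run. Some differences that were not called did change sign, as given above for fertility class, embryo size and the tissue difference in the pregnancy effect. The pregnancy calls, 6 of 6 in each tissue, fell to 0 in caruncular and 1 in intercaruncular tissue with slide as a fixed block, where calls over all probes fell to 58 and 129; few slides held both states. The replicate block (the cow) gave 1 call in place of 0 for the difference of the pregnancy effect between tissues (GBP4, fixed block) and 1 in place of 0 between tissues in cyclic cows (GBP7 LOC533657, fixed and random block), and over all probes 180 and 435 calls in place of 3 for the first; it changed no other GBP call. Leaving out a pregnant cow gave 0 to 3 calls by embryo size in intercaruncular and 0 in caruncular tissue. The measured difference between the GBP7 probes was -1.87 and -1.37 with normexp; LOC507055 was at background in cyclic cows, so no setting measures a difference of effect. Calls by embryo size over all probes of intercaruncular tissue, 545, ranged from 319 to 1089 with other settings and from 34 to 1878 without single cows. Over all GBP counts and probe differences recomputed, 103 were within the limits of the value reported, 7 gained calls and 2 lost them. Precision is limited by the number of cows and, for LOC507055, by signal over background.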
